A study of Mus musculus with 5 samples.

Results

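IgG and IgM plasma cells that had been sorted through the same gate were compared within each of 5 single-cell RNA-seq libraries. Of 5476 deposited cell barcodes, 4345 entered the comparison, 1262 as IgG and 3083 as IgM cells. A cell counted as IgG when Ighg1, Ighg2b, Ighg2c and Ighg3 together made up at least 70% of its UMIs (unique molecular identifiers, 1 per captured transcript) over the 7 heavy-chain constant genes Ighm, Ighg1, Ighg2b, Ighg2c, Ighg3, Ighe and Igha. It counted as IgM when Ighm made up at least 70%, and both classes needed at least 10 such UMIs. Members were thus chosen by their measured heavy-chain constant UMIs, and those genes are described here without a test. No barcode fell under 10 heavy-chain UMIs. Just inside the threshold, 4 cells had an IgG share of 70 to 75% and 7 an Ighm share of 70 to 75%, and just outside it, at 65 to 70%, lay 1 and 2 cells.

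The cells came from untreated, unimmunized male C57Bl6/N mice aged 8 to 12 weeks, and each library pooled cells of 3 mice. All were sorted as CD138-high and negative for Ly6g and CD11c, and all groups share these gates. The gates that differed were B220, a CD45 isoform carried by B cells, and uptake of 2NBDG, a fluorescent glucose analog. Each of the 5 groups had 1 library. Values per library are given throughout in this order: from spleen B220+2NBDG-, then B220-2NBDG-, then B220+2NBDG+, then B220-2NBDG+, and last B220-2NBDG+ from bone marrow.

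Plasma cells are B cells that have matured fully into antibody secretors. A B cell starts with the IgM heavy chain and can replace its constant region by class switch recombination, which removes the Ighm exons from the rearranged locus, so a plasma cell secretes 1 class. Secreted IgM is built in the endoplasmic reticulum into polymers that hold the joining chain, and in mice part of the IgM is made without immunization by B-1 cells. IgG is secreted as a monomer, and its subclass IgG2c is made in C57BL/6 mice where interferon-gamma and the transcription factor T-bet act on the B cell.

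The IgG cells numbered 423, 74, 564, 117 and 84 in the 5 libraries, and the IgM cells 710, 1080, 441, 558 and 294. Cells led by Ighg2c were the most frequent IgG cells in each splenic library, at 60.3%, 40.5%, 55.3% and 42.7%, whereas in bone marrow Ighg2b led 40.5% of the 84 IgG cells and Ighg1 29.8% (exact 95% interval 20.3 to 40.7). The library totals ran from 9451886 to 15591435 UMIs, and the classes' sums of non-immunoglobulin UMIs from 314751 in IgG cells of the B220-2NBDG- spleen to 4160878 in IgM cells of the same library. Ighm made up 1.59 to 3.07% of the heavy-chain UMIs of IgG cells. The IgG genes made up 0.467 to 1.15% of those of IgM cells in 4 libraries and 6.12% in the B220+2NBDG+ library, where 351 of the 441 IgM cells also passed a 90% threshold. In bone marrow 55 of 84 IgG and 244 of 294 IgM cells passed it, and Igha made up 6.22% and 4.75% of their heavy-chain UMIs. The libraries shared 11 barcodes over their 10 pairs, and no doublet caller was run. With a 90% threshold 291 genes were higher and 404 lower in IgG cells, and without the 5% of cells with the most UMIs 313 and 413.

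The sums were checked against markers of plasma cells and of 11 other cell types. The 8 plasma cell markers summed to 84103 to 180645 CPM (counts scaled to a common total of non-immunoglobulin UMIs with TMM factors) in IgG cells and 118623 to 276338 CPM in IgM cells, led by Jchain, with none of them at 0. Sdc1, which encodes CD138, lay at 352 to 776 CPM in IgG and 381 to 665 CPM in IgM cells and did not pass the test (log2 difference -0.034 ± 0.087). The 12 T cell markers summed to 2.99 to 29.2 CPM in IgG and 10.01 to 38.7 CPM in IgM cells, with Cd8a at 0 in both and Trac at 0 in IgG cells. Neutrophil, erythroid, mast cell, megakaryocyte and natural killer cell lists stayed at or below 17.9 CPM in each sum. The macrophage list stood at 29.6 to 64.0 CPM in IgG and 21.4 to 59.7 CPM in IgM cells, and the stromal list at 26.4 to 38.8 and 25.02 to 35.9 CPM. The naive B cell list gave 378 to 469 CPM in IgG and 337 to 602 CPM in IgM cells, led by Cd37. The dendritic cell list (757 to 2134 against 753 to 1679 CPM) was led by Cst3, with Clec9a at 0 in both classes. The plasmacytoid dendritic cell list (990.0 to 10483 against 947 to 3832 CPM) was led by Ly6c2, with 1 UMI of the defining marker Siglech in each class.

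The classes also differed in how evenly their light chains were spread. In IgM cells with a called kappa variable gene, Igkv3-4 led in the 4 splenic libraries, at 29.5%, 14.4%, 51.7% and 60.7%, and Igkv5-39 led in bone marrow at 35.2%. The effective number of kappa variable genes (the inverse of the summed squared shares) was 8.44, 21.7, 3.19, 2.62 and 4.79 in IgM cells and 26.3, 14.3, 13.4, 7.22 and 15.8 in IgG cells. IgG cells thus used the more even set in 4 of 5 libraries. Cells of few mice can belong to few clones, and the part of clones in the differences below was not tested as such. When the cells of the leading kappa variable gene of each class and library were left out, an alternative added after seeing the data, 256 genes were higher and 350 lower in IgG cells, and 244 and 326 of these were among the genes called with all cells.

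Raw UMIs were summed over the IgG and over the IgM cells of each library, and the 10 sums were compared with edgeR's quasi-likelihood test with the library as a block, so that each IgG sum was set against the IgM sum of its own library. Of 7930 genes tested, 735 differed at a Benjamini-Hochberg adjusted p under 0.05, or 9.27%. In IgG cells 320 genes (4.04%) were higher and 415 (5.23%) lower. Among these calls, 253 and 359 had the same sign in all 5 libraries, and 49 and 124 reached 2-fold. The 5 IgG sums lay above all 5 IgM sums for 43 of the 320 and below them for 97 of the 415. Over all genes tested such complete separation was found for 0.933% above and 1.75% below. Whether different mice gave the 5 libraries is not in the labels. With the library as a block, p-values here cover only how the IgG minus IgM difference varied between the 5 libraries, as modelled by edgeR. The model draws each gene's variation toward that of all genes, so neither p nor SE is the gene's own spread. For a gene whose difference varied more than most, both can be too small. Each library was a different sorted population, and the variation between libraries may be technical. The split of the calls depended on scaling: without TMM factors 364 were higher and 324 lower, and with Jchain also left out of the library size 198 and 606, while the median over all genes moved by less than 0.1 on the log2 scale.

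**Figure D1:**
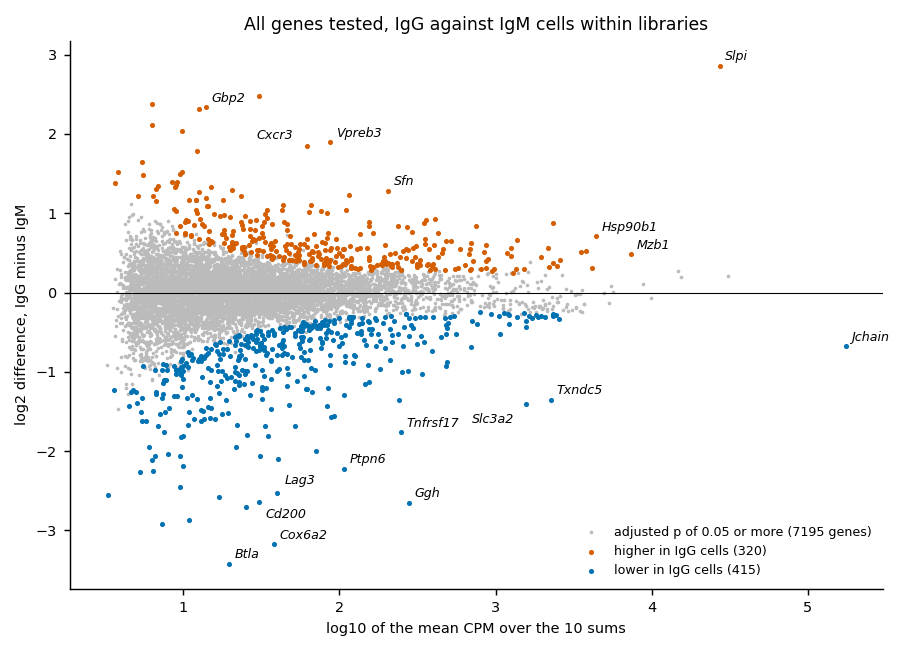
Log2 difference between IgG and IgM cells (vertical axis) against the log10 of the mean CPM over the 10 sums (horizontal axis), 1 point for each of the 7930 genes tested. Orange points are the 320 genes higher in IgG cells and blue points the 415 lower at an adjusted p under 0.05. Slpi lies far above other abundant genes, and the lower edge is formed by genes such as Btla and Cox6a2.

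Slpi, a secreted inhibitor of serine proteases, had the smallest p of all genes higher in IgG cells (ENSMUSG00000017002; chromosome 2, 164354070 to 164389095; GRCm38). Its level was 21680, 23613, 38598, 38155 and 119771 CPM in IgG cells and 3264, 2796, 7892, 6226 and 9867 CPM in IgM cells of the 5 libraries. The IgG sums all lay above the IgM sums, with bone marrow IgG cells highest. The difference was 2.86 ± 0.13 on the log2 scale (SE of the edgeR fit, n = 5 libraries), or 7.27-fold, with an edgeR adjusted p of 2.02e-14. Within libraries the ratio ran from 4.89 in B220+2NBDG+ spleen to 12.1 in bone marrow.

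Several genes of B cells and of their migration were also higher. Values in parentheses below are the log2 difference between IgG and IgM cells ± SE of the edgeR fit and, where a further value follows, the edgeR adjusted p. Counts of called members in the gene lists below stand against 4.04% higher and 5.23% lower over all genes tested. Vpreb3, a partner of the immunoglobulin chains in early B cells (ENSMUSG00000000903; chromosome 10, 75943057 to 75949657), stood at 146, 74.8, 136, 94.4 and 229 CPM in IgG and 29.1, 66.9, 28.7, 38.6 and 32.4 CPM in IgM cells (log2 difference 1.899 ± 0.19, edgeR adjusted p = 1.11e-07). The sums did not overlap, but in B220-2NBDG- spleen the ratio was 1.12 against 2.45 to 7.06 elsewhere. Cxcr3, the receptor of interferon-induced chemokines (ENSMUSG00000050232; chromosome X, 101731535 to 101734269), stood at 158, 95.7, 158, 56.2 and 19.4 CPM in IgG and 75.2, 5.27, 45.95, 6.498 and 1.14 CPM in IgM cells (1.85 ± 0.23, 3.42e-06). IgM cells of both B220+ libraries held more of it than bone marrow IgG cells, so the groups overlapped although IgG was higher in 5 of 5 libraries. The integrin chain gene Itgb7 (ENSMUSG00000001281; chromosome 15, 102215995 to 102231944), whose product pairs with that of Itga4 to bind mucosal vessels, was at 37.6 to 85.4 CPM in IgG and 18.3 to 32.99 CPM in IgM cells without overlap (1.04 ± 0.17, 8.71e-05).

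Further genes were higher in each of the 5 libraries. Pld4, an exonuclease of endolysosomes (ENSMUSG00000052160; chromosome 12, 112760655 to 112768990), stood at 134, 182, 197, 145 and 155 CPM in IgG and 84.2, 53.2, 73.3, 55.9 and 65.97 CPM in IgM cells (1.22 ± 0.12, edgeR adjusted p = 5.65e-08), without overlap. Grn, the gene of progranulin, was at 300.05 to 557 against 189 to 319.6 CPM (0.91 ± 0.095, 1.62e-07), overlapping only through the IgG sum of B220+2NBDG- spleen. Ada, adenosine deaminase, lay at 118 to 180.2 against 34.9 to 106 CPM (1.04 ± 0.13, 2.15e-06), and Sfn, the gene of 14-3-3 sigma, at 103 to 433 against 51.8 to 242 CPM (1.28 ± 0.14, 2.52e-07). Inka1 and Siglecg, a sialic acid-binding inhibitory receptor of B cells, were higher by 1.04 ± 0.15 and 1.096 ± 0.22. Gm8890 and Gm8879 rose by 2.47 ± 0.26 and 2.31 ± 0.24, lie near each other on chromosome 5 and were at 0 in bone marrow IgM cells. They are predicted genes, and reads of similar copies may have been divided between them.

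**Figure D2:**
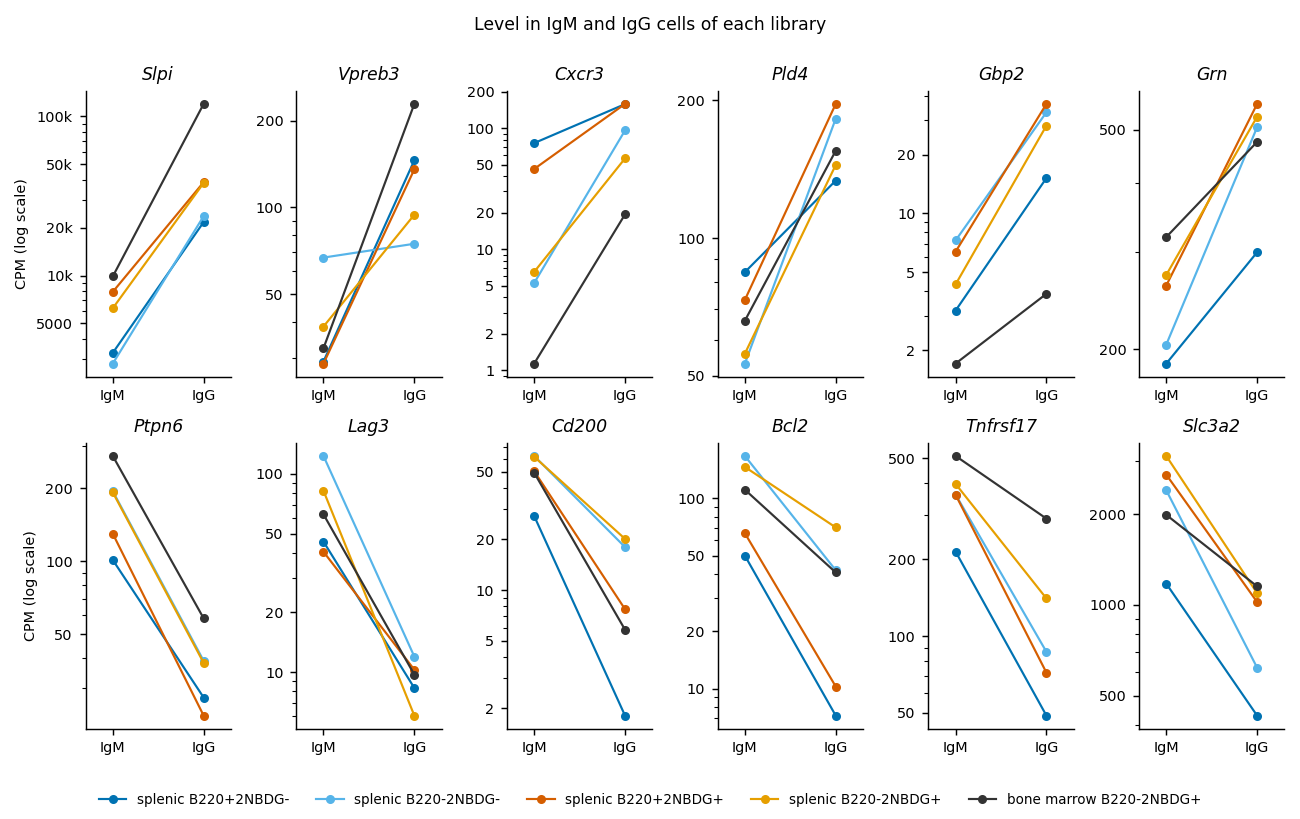
CPM (vertical axis, log scale, a scale of its own for each gene) in IgM and IgG cells for 12 genes, 6 higher in IgG cells in the upper row and 6 lower in the lower row. Each line joins the IgM and the IgG sum of 1 library, and each line of the 12 genes runs in the direction of the gene's call.

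Among the genes lower in IgG than in IgM cells were Ptpn6, Lag3 and Cd200. Ptpn6 encodes SHP-1, the phosphatase through which inhibitory receptors act (ENSMUSG00000004266; chromosome 6, 124720707 to 124738714), and its level was 27.4, 38.9, 23.1, 38.1 and 58.2 CPM in IgG and 101, 195, 130.1, 193 and 272 CPM in IgM cells. The sums did not overlap, and the ratio lay between 3.69 and 5.63 in every library (log2 difference -2.22 ± 0.12, edgeR adjusted p = 3.69e-13). Lag3, an inhibitory receptor (ENSMUSG00000030124; chromosome 6, 124904361 to 124911705), was at 8.305, 11.96, 10.3, 6.02 and 9.703 CPM in IgG and 45.6, 123, 40.5, 82.3 and 62.6 CPM in IgM cells (-2.53 ± 0.18, 2.93e-10). Cd200, ligand of another inhibitory receptor (ENSMUSG00000022661; chromosome 16, 45382135 to 45409053), was at 1.81, 17.9, 7.7003, 20.1 and 5.82 CPM in IgG and 27.4, 62.2, 50.5, 61.5 and 49.5 CPM in IgM cells (-2.64 ± 0.22, 2.57e-09). Neither overlapped. Btla, the B and T lymphocyte attenuator, was named after its values were seen, at 1.81, 2.99, 2.2001, 2.01 and 9.703 against 20.8, 52.7, 32.3, 48.5 and 23.9 CPM (-3.42 ± 0.28, 2.44e-09). Of the 10 tested members of the list of Fc and inhibitory receptors, 3 were lower, Lag3, Cd200 and Fcer1g (-0.597 ± 0.11), and Slamf6 was higher (0.64 ± 0.17), with a list median of -0.015 against 0.0080 over all genes. The inhibitory Fc receptor gene Fcgr2b, at 15.5 to 80.5 CPM in IgG and 22.2 to 77.1 CPM in IgM cells, did not pass (-0.067 ± 0.12, 0.888).

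Further genes fell across the 5 libraries. Samsn1, an adaptor of B cell signalling, was at 1.94 to 8.97 CPM in IgG and 25.9 to 71.7 CPM in IgM cells (-2.71 ± 0.21, edgeR adjusted p = 6.37e-10), without overlap. Ggh, gamma-glutamyl hydrolase of folate metabolism, was at 12.998, 41.9, 21.6, 92.4 and 97.03 CPM in IgG and 55.6, 347, 83.7, 278 and 1761 CPM in IgM cells (-2.65 ± 0.22, 2.57e-09). It was highest in bone marrow IgM cells, and splenic IgM cells with B220 held less than bone marrow IgG cells. Cox6a2, a subunit of cytochrome c oxidase, was at 3.97, 14.96, 5.13, 8.03 and 0 CPM in IgG cells, with 0 UMIs in bone marrow, and at 14.7, 135, 56.4, 99.2 and 45.5 CPM in IgM cells (-3.18 ± 0.23, 3.5e-10). Cox6a2 is on the plasmacytoid dendritic cell list, whose defining marker Siglech had 1 UMI in each class. Ehd4, of endocytic recycling, and the septin gene Sept7 fell by 1.56 and 1.35 on the log2 scale with IgG below IgM sums throughout. Hspb1, Clec2i and the noncoding transcripts E330020D12Rik and 1810041H14Rik were also among the 12 with the largest fall, at -2.06 ± 0.24, -1.79 ± 0.19, -2.105 ± 0.24 and -1.68 ± 0.18.

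The survival list held the Bcl2 family and the receptors of BAFF and APRIL, the cytokines that keep plasma cells alive. Bcl2 and Bcl2l1 differed in opposite directions, and no receptor of the 2 cytokines was higher in IgG cells. Tnfrsf17, which encodes the receptor BCMA (ENSMUSG00000022496; chromosome 16, 11313812 to 11320074), was at 48.7, 86.7, 71.9, 141 and 289 CPM in IgG and 215, 359.6, 359, 396 and 509.6 CPM in IgM cells (-1.76 ± 0.14, edgeR adjusted p = 2.44e-09). Bone marrow IgG cells, the highest of the IgG sums, lay above IgM cells of the B220+2NBDG- library, so the groups overlapped. The anti-apoptotic gene Bcl2 (ENSMUSG00000057329; chromosome 1, 106538178 to 106714274) was at 7.22, 41.9, 10.3, 70.3 and 40.8 CPM in IgG and 49.96, 167, 65.5, 146 and 111 CPM in IgM cells (-2.001 ± 0.18, 1.25e-08). Its relative Bcl2l1, the gene of Bcl-xL, went the other way, from 4.55 to 11.3 CPM in IgM to 6.02 to 23.9 CPM in IgG cells (1.17 ± 0.25, 0.00239), higher in 4 of 5 libraries. That call was lost without the B220+2NBDG+ library and with each cell weighted equally. The receptor gene Tnfrsf13b, encoding TACI, was also lower (-0.54 ± 0.093). Birc3 was lower too (-0.54 ± 0.17, 0.0459), but lost its call with DESeq2 (adjusted p = 0.268) and in each of the 5 fits without 1 library. In all, 1 of 22 tested genes of the survival list was higher and 4 were lower (median -0.10), against 4.04% and 5.23% of all genes tested.

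Plasma cell genes did not move as 1 block. Of 21 tested, 5 were higher and 7 lower (median -0.034). Xbp1, the transcription factor of secretory cells, was higher (0.31 ± 0.081, edgeR adjusted p = 0.0138) and Prdm1, which encodes Blimp-1, lower (-0.497 ± 0.13, 0.0128). Irf4 did not pass (-0.15 ± 0.10, 0.448). Both changes were under 1.5-fold, and the call for Prdm1 was lost with DESeq2 (adjusted p = 0.136) and that for Xbp1 without either splenic 2NBDG+ library.

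B cell identity genes moved in both directions, with 6 of 25 higher and 7 lower (median -0.058). Besides Vpreb3, the antigen receptor component Cd79b (0.302 ± 0.079) and the surface marker Cd24a (0.75 ± 0.093, edgeR adjusted p = 2.25e-06) rose. Cd83, an activation marker (-2.57 ± 0.25, 5.63e-08), the kinase gene Blk (-1.59 ± 0.22), the transcription factor gene Irf8 (-1.21 ± 0.12, 6.98e-08) and Pou2af1, a coactivator of Oct factors in B cells (-0.65 ± 0.086), fell, each in 5 of 5 libraries. Ptprc, which encodes CD45 and so B220, stood at 35.9 to 76.5 CPM in IgG and 43.8 to 73.5 CPM in IgM cells and did not pass (0.200 ± 0.14, 0.439). In the list of B-1 and marginal zone associated genes, 2 of 10 were higher, Spn, the gene of CD43 (0.91 ± 0.16), and Siglecg, and 1 lower, Bhlhe41 (-0.39 ± 0.11, 0.029), a transcription factor gene of B-1 cells, with a median of -0.20. The call for Bhlhe41 was lost with DESeq2 (adjusted p = 0.283), and Plac8 and Ctla4 did not pass (-0.094 ± 0.17 and -0.37 ± 0.24).

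MHC class II genes, which present antigen to T cells, were higher in IgG cells for 8 of 11 tested members, and none was lower (median 0.63 against 0.0080 over all genes). H2-Aa was at 921, 365, 679, 179 and 36.9 CPM in IgG and 680.4, 123, 374, 61.1 and 50.05 CPM in IgM cells (0.87 ± 0.15, edgeR adjusted p = 0.000156). It was higher in the 4 splenic libraries and lower in bone marrow. H2-Ab1 was at 2955, 1116, 2957, 918 and 402 CPM in IgG and 2268, 559, 1771, 442 and 367 CPM in IgM cells (0.67 ± 0.10, 6.93e-05), with a bone marrow ratio of 1.10. H2-Eb1, H2-Eb2 and H2-DMb2 rose by 0.92 ± 0.16, 0.95 ± 0.16 and 0.99 ± 0.18. The spread between libraries was larger than the class difference, since IgM cells of B220+ spleen held more H2-Aa than IgG cells of B220- spleen and marrow. Cd74, the invariant chain, at 13335 to 21620 against 12864 to 16719 CPM, did not pass (0.197 ± 0.092, 0.219). With DESeq2 3 of the 11 genes were higher, without cells led by Ighg2c 4, and with each cell weighted equally or without the B220+2NBDG- library 5. H2-Aa, H2-Eb1 and H2-DMb2 lost the call with DESeq2 (adjusted p = 0.1775, 0.2073 and 0.0538). In the B220- libraries alone 4 of 10 were higher and 1 lower, and with Jchain left out and no TMM factors 7 of 11 were higher and 1 lower.

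IgM assembly and retention in the endoplasmic reticulum was covered by 23 tested genes, of which 12 were higher in IgG cells and 2 lower (median 0.29). The lower ones were Jchain and Txndc5. Jchain, the joining chain of polymeric antibodies (ENSMUSG00000067149; chromosome 5, 88519809 to 88527891), was at 68938, 133333, 137721, 167426 and 166092 CPM in IgG and 105354, 256019, 222023, 266046 and 233291 CPM in IgM cells (-0.68 ± 0.093, edgeR adjusted p = 1.13e-05). IgG cells thus kept high Jchain, at 1.40 to 1.92-fold below the IgM cells of their library. In the B220+ libraries alone its call was lost (-0.65, edgeR adjusted p = 0.221). Txndc5, a protein disulfide isomerase (ENSMUSG00000038991; chromosome 13, 38500079 to 38528824), was at 984, 978, 973, 1421 and 2352 CPM in IgG and 3153, 2714, 3579, 3242 and 3372 CPM in IgM cells (-1.35 ± 0.12, 1.99e-08), without overlap.

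The 12 higher genes of this list included chaperones of antibody chains. Hsp90b1, the chaperone GRP94, was at 9020.2, 5917, 5977, 4029.5 and 2336 CPM in IgG and 6137, 2792, 3429.8, 2468 and 1750.5 CPM in IgM cells (0.71 ± 0.091, edgeR adjusted p = 3.42e-06). Mzb1, a chaperone that aids IgM assembly, was at 5229.9 to 10656 against 3544 to 9075 CPM (0.48 ± 0.085, 0.000254), higher in 5 of 5 libraries with overlapping ranges. It lost its call in the B220+ libraries alone (0.35, edgeR adjusted p = 0.229). Lman1, a cargo receptor for export, Erp44, which retains unassembled IgM, and Txndc11 rose by 0.65 ± 0.10, 0.55 ± 0.087 and 0.63 ± 0.10. With Jchain left out of the library size and no TMM factors 7 of the 23 were higher, and 6 were higher in the B220+ libraries alone and without the B220+2NBDG+ library. In the wider list of the unfolded protein response, 8 of 29 were higher and Herpud1 lower (-0.53 ± 0.09), with Edem1, Edem2, Ssr4 and Manf at 0.56 ± 0.10, 0.56 ± 0.11, 0.53 ± 0.097 and 0.44 ± 0.082. In the B220+ libraries alone 1 of the 29 was higher, with DESeq2 5, and without the splenic B220-2NBDG+ library 4.

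Amino acid supply and the integrated stress response gave the most one-sided fall. Under amino acid shortage or endoplasmic reticulum stress, phosphorylation of eIF2 lets ATF4 be translated, and ATF4 with C/EBP partners activates genes of amino acid import and synthesis. Of 21 tested genes of this list 14 were lower in IgG cells and 1 higher (median -0.59), against 5.23% and 4.04% of all genes tested. Slc3a2, the CD98 heavy chain that carries amino acid transporters to the surface (ENSMUSG00000010095; chromosome 19, 8706882 to 8723369), was at 429, 619, 1023, 1094 and 1153 CPM in IgG and 1177, 2402, 2706, 3122 and 1990.5 CPM in IgM cells (-1.41 ± 0.11, edgeR adjusted p = 6.37e-10). All IgG sums lay below all IgM sums. The mitochondrial folate enzyme gene Mthfd2 was at 37.9, 50.9, 50.97, 42.2 and 36.9 CPM in IgG and 84.7, 129, 156, 156 and 83.03 CPM in IgM cells (-1.43 ± 0.12, 2.44e-09). Asns, asparagine synthetase (ENSMUSG00000029752; chromosome 6, 7675169 to 7693254), was at 56.3, 29.9, 58.7, 82.3 and 73.7 CPM in IgG and 105, 143, 197, 227 and 94.98 CPM in IgM cells (-1.29 ± 0.14, 5.44e-07), and again did not overlap. Ddit3, which encodes CHOP, Atf5 and Cebpb fell too (-1.23 ± 0.16, -1.204 ± 0.20 and -0.66 ± 0.11). Slc7a5, the transporter partner of Slc3a2, and Chac1, which degrades glutathione, were lower in 4 of 5 libraries (-0.88 ± 0.16 and -0.99 ± 0.22) and higher in bone marrow. Chac1 lost its call with DESeq2 (adjusted p = 0.0993), in the B220- libraries alone and without the B220+2NBDG+ library. The same held on thinning and with each cell weighted equally. The higher gene was Ddit4, an inhibitor of mTORC1 (0.97 ± 0.17), and Atf4 itself did not pass (-0.074 ± 0.11, 0.786). Without the B220+2NBDG+ library, with DESeq2 and in the B220- libraries alone 9 of these genes were lower.

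**Figure D3:**
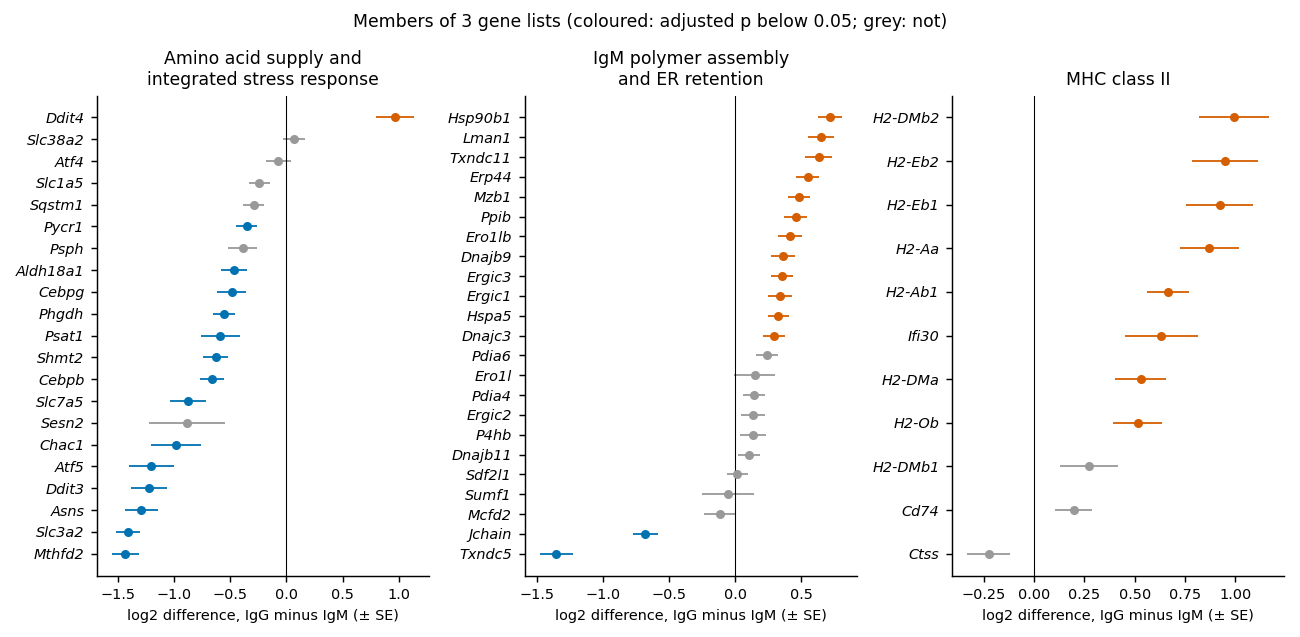
Log2 difference between IgG and IgM cells (horizontal axis, bars ± SE) for the tested members of 3 gene lists. Members past an adjusted p of 0.05 are orange where higher and blue where lower in IgG cells, and the others are grey. The amino acid list lies left of 0 but for Ddit4 and Slc38a2, the assembly list lies mostly right of it with Jchain and Txndc5 far left, and all but Ctss of the MHC class II list lie right of it.

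Promoter sequences are shown for 2 members of this list and 2 interferon-induced genes that differed, to show the response elements after which such genes are grouped. The windows are the 250 bases before the gene's start in RefSeq (GRCm38.p6), printed 5′ to 3′ on the gene's strand, with the matched motif in capitals. Starts in RefSeq can differ from the GENCODE coordinates given for genes here. For Asns and Gbp2 the GENCODE gene reaches into the window and over the match. For the amino acid genes the motif was the C/EBP-ATF response element, TGATGNAA on either strand, which 3.45% of 32851 windows hold. It was found in 3 of the 15 windows of the list's lower genes, those of Asns, Chac1 and Pycr1, among 13 genes with a window. It lay 23 bases before the start in Asns and on the other strand 193 bases before it in Chac1.
Asns, chr6:7693210-7693459, minus strand: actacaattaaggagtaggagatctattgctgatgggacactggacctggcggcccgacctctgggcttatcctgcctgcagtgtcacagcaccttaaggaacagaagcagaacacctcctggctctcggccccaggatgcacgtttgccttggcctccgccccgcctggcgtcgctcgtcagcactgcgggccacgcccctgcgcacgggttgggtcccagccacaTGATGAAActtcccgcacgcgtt
Chac1, chr2:119350992-119351241, plus strand: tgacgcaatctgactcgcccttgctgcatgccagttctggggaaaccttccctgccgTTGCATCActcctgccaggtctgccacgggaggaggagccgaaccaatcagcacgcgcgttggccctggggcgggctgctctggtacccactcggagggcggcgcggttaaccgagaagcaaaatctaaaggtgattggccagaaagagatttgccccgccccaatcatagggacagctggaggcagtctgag
For the interferon-induced genes it was the interferon-stimulated response element, GAAA, any 2 bases and GAAA on either strand. It was held by 2.98% of windows and by 2 of the 5 windows of the 3 higher genes of that list. The match lies 59 bases before the start of Gbp2, on the other strand, and 130 bases before that of Bst2, where 2 matches overlap.
Gbp2, chr3:142620413-142620662, plus strand: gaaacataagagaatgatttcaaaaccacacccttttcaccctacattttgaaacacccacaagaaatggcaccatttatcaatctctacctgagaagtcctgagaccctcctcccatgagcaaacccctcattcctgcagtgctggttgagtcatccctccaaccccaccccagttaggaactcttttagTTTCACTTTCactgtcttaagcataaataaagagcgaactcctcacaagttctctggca
Bst2, chr8:71537473-71537722, minus strand: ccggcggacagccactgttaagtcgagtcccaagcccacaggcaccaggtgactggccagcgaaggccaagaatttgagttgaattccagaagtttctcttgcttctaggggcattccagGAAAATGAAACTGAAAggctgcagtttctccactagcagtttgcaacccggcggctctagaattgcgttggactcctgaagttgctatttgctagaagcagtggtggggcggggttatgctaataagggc
Over the windows of all genes called, the first motif was in 4.45% for genes lower and 4.64% for genes higher in IgG cells. The second was in 3.60% and 3.97%. Counted by gene, where any of several windows may match, the shares were 6.15% and 4.98%, and 4.31% and 4.98%. Those shares by gene cannot be set against the shares of all windows. A match is a run of letters, and no binding was measured.

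Interferon-induced genes as a list did not lean to either side, with 3 of 17 higher and 2 lower (median -0.0047). Gbp2, a guanylate-binding GTPase (ENSMUSG00000028270; chromosome 3, 142620602 to 142638008), whose promoter is shown above, was at 15.2, 32.9, 36.3, 28.1 and 3.88 CPM in IgG and 3.18, 7.27, 6.37, 4.33 and 1.71 CPM in IgM cells (2.34 ± 0.23, edgeR adjusted p = 5.62e-08). It was higher in 5 of 5 libraries and overlapped only through the low bone marrow IgG sum. The related Gbp3 and Gbp4, named after their values were seen, stood at 1.19 ± 0.21 and 1.22 ± 0.20. Bst2, the antiviral protein tetherin, was at 301 to 476 against 203 to 312 CPM (0.57 ± 0.084, 3.24e-05), and Isg20, an exonuclease, rose by 0.53 ± 0.10. Ifi27l2a and Phf11b fell by 0.63 and 1.11 on the log2 scale.

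The list of T-bet and type 1 response genes had 6 members tested, of which 2 were higher, Cxcr3 among them, and Zeb2 was lower (-1.22 ± 0.38, edgeR adjusted p = 0.0387). Tbx21, which encodes T-bet, was filtered out for low counts, at 0 to 4.02 CPM in IgG and 0 to 1.71 CPM in IgM cells, so a difference was not testable at this depth. Of 8 tested class switch and germinal centre genes 1 was lower, Pdcd1lg2 (-1.54 ± 0.46, 0.0328), at 0 to 16.1 CPM in IgG cells. Both Zeb2 and Pdcd1lg2 lost the call with DESeq2 (adjusted p = 0.265 and 0.0568).

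Adhesion and homing genes were higher in IgG cells for 5 of 19 and lower for 2 (median 0.23). Beside Itgb7 these were its partner Itga4 (0.69 ± 0.14, edgeR adjusted p = 0.00148), Itgb2 (0.55 ± 0.092), Cd48 and the sphingosine phosphate receptor gene S1pr4. S1pr4 lost its call in 14 of 24 alternatives, including DESeq2 (adjusted p = 0.189) and the fits without each splenic library. The integrin gene Itgav was among the lower ones (-1.26 ± 0.38). In the Ly6 family, Ly6c2, Ly6c1 and Ly6a were higher (0.88 ± 0.16, 1.33 ± 0.26 and 0.34 ± 0.096) and Ly6d and Ly6k lower (-0.43 ± 0.11 and -0.63 ± 0.16). With DESeq2 1 of the 7 tested members was higher and 0 lower, with adjusted p of 0.129 for Ly6c2, 0.0818 for Ly6d and 0.486 for Ly6k. Ly6c1 and Ly6c2 are close copies whose reads can be misassigned, and Ly6a kept its call in none of the fits without bone marrow, without the B220+2NBDG+ or without the splenic B220-2NBDG+ library.

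Of 14 tested glycolysis genes 4 were higher, Hk2, Pgk1, Pkm and Ldha, and 2 lower, Pfkp and Aldoa, between -0.61 ± 0.13 and 0.75 ± 0.24 (median 0.062). With DESeq2 1 was higher and 1 lower, and with each cell weighted equally 0 and 0. Ldha lost its call in 18 of 24 alternatives, Hk2 in 15 of 22 and Pgk1 in 12 of 24. None of the 13 mitochondrially encoded genes passed with edgeR or DESeq2, the most abundant, mt-Atp6, being at 0.11 ± 0.086 (adjusted p = 0.509). Of 15 immediate early genes 3 were higher and 4 lower, with Btg2, which restrains proliferation, at 0.61 ± 0.086 and the NF-kappa-B inhibitor gene Nfkbia at -0.74 ± 0.12. In the Anxa2, Vim and S100 list 3 of 19 were higher, Vim, Crip1 and Cd52 (0.81 ± 0.16, 0.55 ± 0.11 and 0.51 ± 0.12), and none lower.

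Cell cycle genes were higher in IgG cells for 14 of 25 tested, and none was lower (median 0.64). Rrm2, ribonucleotide reductase, was at 343, 53.8, 70.4, 24.1 and 5.82 CPM in IgG and 207, 21.1, 23.7, 9.53 and 5.12 CPM in IgM cells (1.03 ± 0.14, edgeR adjusted p = 1.13e-05), and the replication factor gene Pclaf at 0 to 321 against 0 to 216 CPM (1.02 ± 0.20). The levels were highest in the B220+2NBDG- library in both classes. Mki67 did not pass (0.18 ± 0.17, 0.599). Cycling cells, those with at least 3 cell cycle UMIs after thinning to 1000 non-immunoglobulin UMIs, were 18.9% of IgG (exact 95% interval 15.3 to 23.0) and 13.9% of IgM cells (11.4 to 16.6) in that library and at most 4.17% in the others. Without them 0 of 14 tested genes of the list were higher and 2 lower (median -0.14), and with each cell weighted equally 1 of 25 was higher. The cycling cells were chosen by UMIs of this same list. Leaving them out therefore lowers the list in both classes by construction, and nothing is concluded from the lost calls. Without the B220+2NBDG- library 7 of 17 were higher and 2 lower, and without the B220+2NBDG+ library 5 of 22 were higher.

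No summary per cell passed its test. Across the 5 libraries the share of cycling cells was higher in IgG cells in 4 and 0 in both classes in bone marrow (mean difference 1.87 percentage points ± 2.11 SD, n = 5, exact two-sided sign-flip permutation p = 0.125). Median non-immunoglobulin UMIs per cell averaged 4885 in IgG and 4709 in IgM cells (exact permutation p = 0.3125), and median genes per cell 1549 and 1478 (exact permutation p = 0.1875). Kappa constant UMIs per cell averaged 4888 in IgG and 4517 in IgM cells (exact permutation p = 0.25). Immunoglobulin genes took 59.7% of UMIs in IgG and 58.9% in IgM cells on average. That share contains the heavy-chain UMIs of the rule, so its test is not read here, although it was among the 6 measures adjusted together. Lambda cells, called from those of Iglc1, Iglc2 and Iglc3 that the counts listed, made up 5.41% of IgG and 10.5% of IgM cells in B220-2NBDG- spleen. Elsewhere they made up at most 3.42% (exact permutation p = 0.6875). With 5 pairs the smallest p this test can give is 2 of 32 sign patterns, which misses 0.05, and the adjusted values over the 6 measures were 0.469 to 0.6875.

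IgG is a mixture of subclasses, so the genes were also read in the 14 sums of 1 subclass and library with at least 20 cells. These levels are given without TMM factors and without a test. Slpi, Cxcr3, Pld4, Ada, Itgb7, Grn, Mzb1 and Hsp90b1 lay above the IgM cells of the same library in 14 of 14 sums. Cox6a2, Samsn1, Ggh, Cd200, Lag3, Ptpn6, Bcl2, Tnfrsf17, Txndc5, Jchain, Slc3a2 and Btla lay below in 14 of 14. Within that shared direction the subclasses differed in size. Slpi in IgG3 cells was at 13060 and 14632 CPM in the B220+ libraries without and with 2NBDG, against 27657 and 47182 CPM in IgG2c cells and 3585 and 7884 CPM in IgM cells of the same libraries. IgG2c cells held more Slpi than IgG2b cells in 5 of 5 libraries, 129753 against 92974 CPM in bone marrow. Cxcr3 was highest in IgG3 cells of both B220+ libraries, at 226 and 197 CPM. H2-Aa was above IgM in 11 of 14 sums and Asns below in 13 of 14.

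**Figure D4:**
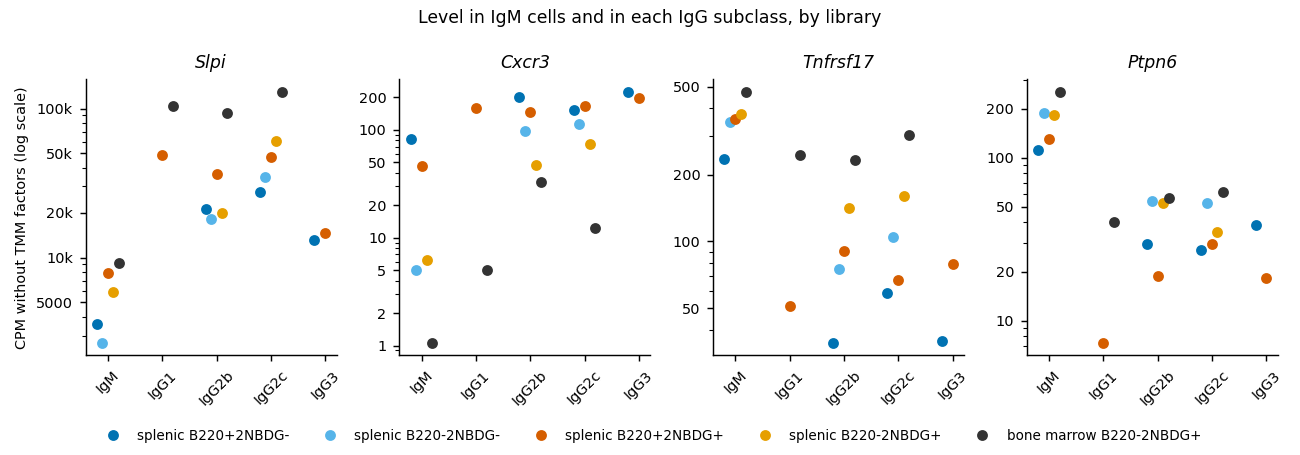
CPM without TMM factors (vertical axis, log scale) of 4 genes in IgM cells and in cells of each IgG subclass, 1 point for each library with at least 20 cells of the subclass, coloured by library. For Slpi and Cxcr3 the 14 subclass points lie above, and for Tnfrsf17 and Ptpn6 below, the IgM point of the same colour.

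Whether the class difference itself differed between the sorting gates was tested with interaction terms. Between the 2 B220+ and 3 B220- libraries, 25 of 7930 genes passed (0.315%), 9 with more and 16 with less IgG excess in B220+ cells. Between 2NBDG+ and 2NBDG- libraries edgeR called 0 genes (0%), with 326 at an unadjusted p under 0.05 against 471 for B220; DESeq2 was not run on the interactions. The B220 count fell to 7 without the B220+2NBDG- library and to 14 without the splenic B220-2NBDG+ library, and rose to 40 without the B220-2NBDG- library. The 2NBDG count was 24 without the B220+2NBDG+, 6 without the B220-2NBDG- and 3 without the B220+2NBDG- library.

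Apoe, a lipid carrier (ENSMUSG00000002985; chromosome 7, 19696109 to 19699188), was at 838, 23.9, 254, 6.02 and 7.76 CPM in IgG and 543, 358, 107, 31.2 and 8.53 CPM in IgM cells. It was higher in IgG cells of both B220+ libraries and lower in those of all 3 B220- libraries, a difference of 4.04 ± 0.36 on the log2 scale (edgeR adjusted p = 3.33e-12). The subclasses did not share this rise: Apoe lay above IgM in 5 of 14 subclass sums, 3 of them IgG2b. Without TMM factors IgM cells of the B220+2NBDG- library held 597 CPM. No IgG2c or IgG3 sum exceeded 548 or 485 CPM, whereas IgG2b reached 2346 CPM. For the following genes the parentheses hold this same B220+ minus B220- difference. Prg2, the eosinophil major basic protein gene, was at 883, 927, 1899, 1939 and 3167 CPM in IgG and 255, 2049, 993, 2034 and 2576 CPM in IgM cells (1.62 ± 0.22, 3.32e-06). The IgG excess of Cxcr3 was smaller in B220+ cells (-2.37 ± 0.35, 8.7e-06), where IgM cells also held it, with ratios from 2.099 to 3.45 against 8.65 to 18.2. Napsa, an aspartic protease, was at 109, 170.5, 269, 317 and 147 CPM in IgG and 134, 62.9, 202, 99.2 and 30.7 CPM in IgM cells (-1.67 ± 0.20, 1.5e-07). Gpx3, a secreted glutathione peroxidase, was at 68.8 and 34.1 CPM in IgG against 6.27 and 3.47 CPM in IgM cells of the splenic B220- libraries and had 0 UMIs in bone marrow IgG cells (-2.85 ± 0.41, 8.14e-06). The tubulin gene Tuba1b (1.52 ± 0.25, 0.000181) lost its call without cycling cells (0.59, adjusted p = 0.927) and without the B220+2NBDG- library (1.33, adjusted p = 0.204). Among the genes above, the falls of Tnfrsf17 and Bcl2 were also larger in B220+ libraries (-0.92 ± 0.21, 0.0236, and -1.297 ± 0.31, 0.0318).

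**Figure D5:**
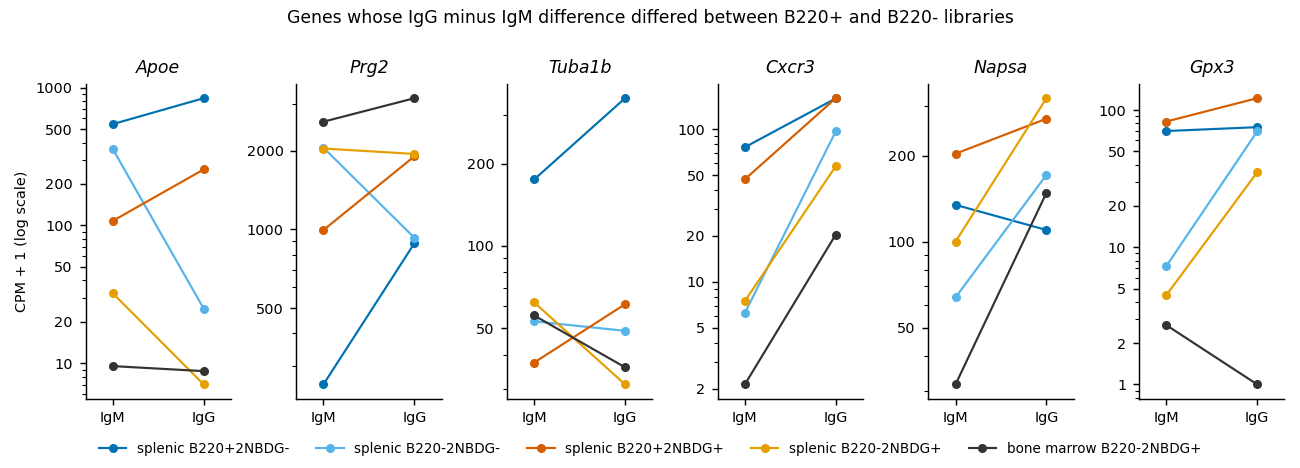
CPM + 1 (vertical axis, log scale) in IgM and IgG cells of each library for the 6 genes with the smallest p for a class difference that differed by B220 gate. Lines join the sums of 1 library. For Apoe the B220+ lines (dark blue and orange-red) rise from IgM to IgG and the 3 B220- lines fall.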

How the data were processed

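The authors deposited raw UMI counts per gene and cell barcode for 5 libraries made with 10x Genomics 3' chemistry, version 2, per the labels' protocols. Cell Ranger 2.1 and the GRCm38 build were used, per the submitters' processing notes; their annotation and barcode filter: not given in the sources used here. Each table lists 33456 genes, of which 32739 were found in GENCODE M21, which gave coordinates and the 266 immunoglobulin genes left out of library sizes. Counts of each class were summed per library and tested with edgeR 4.0.16 (R 4.3.3): TMM, filterByExpr, library as block, Benjamini-Hochberg over 7930 genes. Standard errors came from the quasi-likelihood F statistic, with 4 residual degrees of freedom and 21.9 prior ones estimated over all genes. Gene names followed a rule: the 12 largest changes per direction with 1 sign in 5 libraries and a mean of at least 25 CPM, the 8 smallest p per direction, up to 6 called members and the most abundant member of each of 19 lists, a set of 17 genes, and the 6 smallest p per interaction. Genes outside this rule (Btla, Gbp3, Gbp4, Slc7a5, Chac1, Ddit4, Atf4, Slc38a2, Pycr1, Ctss) were named after their values were seen. Some called list members are not reported here. The members and lists were chosen with earlier results of these data known. On simulated data with 7932 genes, 24, 48, 50 and 50 of 50 genes changed 1.5, 2, 3 and 4-fold between IgG and IgM were recovered, with 6 false calls of 178. For the B220 interaction 0, 4, 34 and 43 of 50 were. The simulation changed only well-counted genes, gave all genes the same dispersion, and kept each fold equal in the libraries that carried it. Recovery and false calls in the real sums, with sparser genes and differences that vary between libraries, were not measured. Alternatives were DESeq2 1.42.0, other scalings, thresholds, cell sets and weights. Intervals of shares are exact Clopper-Pearson and cover counting error only.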

Additional observations from a re-analysis of the deposited data

Results flagged for a closer look

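Of 90 called genes examined, 7 had 1 library far from the other 4 in the log2 difference between IgG and IgM cells, and chance alone gives about 1 in 20. Ada was at 2.16 in B220-2NBDG- spleen and Clec2i at -1.25 in splenic B220-2NBDG+ cells. In B220+2NBDG- spleen Siglecg was at 0.54 and Aldoa at -0.12. In bone marrow Ly6a was at 0.90, Pfkp at -1.59 and Cebpb at -0.085.

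The difference between the classes differed by B220 gate, by the edgeR interaction test, for the 6 genes with the smallest p. B220+ minus B220- libraries it was 4.04 for Apoe, 1.62 for Prg2, 1.52 for Tuba1b, -1.67 for Napsa, -2.37 for Cxcr3 and -2.85 for Gpx3, on the log2 scale.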

How the results depend on the processing

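Against 320 genes higher and 415 lower in IgG cells, DESeq2 gave 183 and 208, of which 182 and 208 were among them, and the fit with no replicate block (libraries not paired) gave 13 and 42, all among them. B220- libraries alone gave 189 and 207, cells not led by Ighg2c 194 and 259, thinning to 1000 UMIs 118 and 160 of 3819 genes tested, and equal weight for each cell 227 lower. Leaving Jchain out of library size without TMM factors gave 198 higher. Without 1 library the counts ran from 157 to 363 higher and 236 to 419 lower, lowest without B220+2NBDG+ spleen. In none of the 24 settings was a gene called in the opposite direction to its main call. The B220 interaction gave 7 to 40 genes and the 2NBDG interaction 0 to 24 when 1 library was left out. Directions turned for Plac8 in B220- libraries (0.57), Hmgb2 without cycling cells (-0.16), Apoe in B220- libraries (-3.11) and Tuba1b without cycling cells (-0.45). The cause was not tested. Of 113 named genes called in the main test, 90 kept the call with DESeq2 and 23 without pairing, and 53 named genes lost it in some other setting. The labels give each group 1 library, so the pairing is by library. Leaving out 1 library at a time, the mean differences per cell ran from 81.3 to 256 UMIs, 41.6 to 96.6 genes, 0.11 to 1.73 points of immunoglobulin share, 215 to 501 kappa UMIs, -1.33 to 0.21 points of lambda cells and 1.07 to 2.33 points of cycling cells. With a 90% threshold the UMI difference was -29.2. Without pairing by library 0 MHC class II, 0 cell cycle and 3 amino acid genes passed in their called direction. Sums of 74 to 117 IgG cells in the B220- libraries limit genes of low level.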
